A study of Ovis aries and Bos taurus with 15 samples.

Results

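Bovine endothelial cells labelled BAEC were compared with ovine endothelial cells labelled PAEC on an array of bovine probes. The 5 arrays titled as bovine controls were set against the 5 ovine control arrays, which makes 10 of the series' 15 arrays. The other 5 arrays, of ovine PAEC given GW9662, entered no fit. All 24016 probe sets that are not Affymetrix controls were tested, and 13292 of them carry 1 gene symbol and cover 9155 genes. Results are given first for the 4923 genes with a mean of 5 or more in both groups, called bright here. How well sheep RNA pairs with the bovine probes was not measured.

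The series was made to profile pulmonary endothelial cells under inhibition of PPARγ, a nuclear receptor that controls lipid genes. Ovine control cells received the DMSO vehicle for 24 h. The treatment stated in the labels covers the ovine cells, and none is stated for the bovine cells. Both groups grew in DMEM with 10% fetal bovine serum, so the serum came from the species of one group only. The labels call the ovine cells PAEC and the bovine cells BAEC without spelling either out, and the series title speaks of pulmonary endothelium. No age, sex, passage, clone or animal is given. Species and source of the cells therefore differ between the groups, and the vehicle may differ, so these cannot be told apart. The labels do not say whether the 5 arrays of a group were separate cultures or animals. The p-values therefore measure only the spread between these samples, which may be technical.

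Endothelial cells line all blood vessels, hold the barrier through junction proteins such as VE-cadherin, and set vascular tone through nitric oxide and prostacyclin. When activated by inflammatory signals they display selectins, VCAM1 and ICAM1 and secrete chemokines, which slow and capture leukocytes. Cells of large and small vessels, and of systemic and pulmonary beds, keep partly different expression of transcription factors, growth factors and matrix genes in culture.

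Values are log2 expression after RMA, which corrects background, equalises the distributions of the arrays and summarises the probes of a set. A difference of 1 on this scale is 2-fold. Differences are bovine minus ovine, so a positive value is higher in bovine cells. Genes called higher or lower passed the limma test at a Benjamini-Hochberg adjusted p of 0.05 over all probe sets. Means are given with their SD over 5 arrays, and differences with their standard error (SE). A gene is represented by its brightest probe set. Other probe sets are given for some genes only, so a gene without them may still have one that differs. Beyond those that a rule of size picked, members of the gene groups were named after their values were seen. The files hold no detection call, and a mean under 3 is taken as the floor of the scale.

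Correlations between arrays were at least 0.997 within the bovine group and at least 0.994 within the ovine group, against 0.974 to 0.979 between groups. Ovine replicate 1 stood apart, with a median over the bright probe sets of 7.52 where the other ovine arrays had 7.67 to 7.73 and the bovine arrays 7.72 to 7.74. The 3′ minus 5′ signal averaged over 6 control transcripts was 0.881 ± 0.043 in bovine and 1.18 ± 0.085 in ovine arrays, with no overlap. A two-sided exact permutation test gave p = 0.00794, the lowest value possible here, and 0.0179 after adjustment over 9 array measures. It differed in the elongation factor EF1A, GAPDH and cyclophilin transcripts, and the values of actin, glutathione S-transferase and eIF4E did not pass the test. Its part in the results below was not tested.

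The endothelial label was checked on 14 measured markers. Of these, 10 were bright in both groups. PECAM1, a junction adhesion molecule, read 11.68 ± 0.051 in bovine and 11.63 ± 0.081 in ovine cells and CDH5, VE-cadherin, 11.64 ± 0.091 in bovine and 11.47 ± 0.083 in ovine cells. The angiopoietin receptor TEK, TIE1, the nitric oxide synthase NOS3, the transcription factor ERG, ENG, EGFL7, ROBO4 and MCAM were also bright in both. Against the label, VWF, the von Willebrand factor stored by endothelial cells, lay at the floor in both groups (2.28 ± 0.0044 in bovine and 2.31 ± 0.019 in ovine cells), as did its other probe set. The VEGF receptor KDR read 3.08 ± 0.50 in bovine and 2.64 ± 0.10 in ovine cells. FLT1, also a VEGF receptor, read 3.21 ± 0.42 in bovine and 2.9 ± 0.039 in ovine cells. Both were at the floor in ovine cells and just above it in bovine cells. CLDN5, a tight junction protein, read 5.03 ± 0.44 in bovine and 2.45 ± 0.013 in ovine cells and was likewise at the floor in ovine cells only.

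Markers of other cell types were mostly at the floor. Both groups were under 3 for all 3 erythroid, all 3 lymphatic, 5 of 6 leukocyte, 5 of 7 fibroblast, 5 of 6 epithelial and 4 of 6 smooth muscle markers measured, among them PTPRC, EPCAM, PDGFRA, DCN, ACTA2 and MYH11. The exceptions were COL1A2 (11.24 ± 0.029 in bovine and 10.33 ± 0.14 in ovine cells), COL3A1 (10.41 ± 0.04 in bovine and 10.44 ± 0.025 in ovine cells), KRT5 (5.01 ± 0.23 in bovine and 4.99 ± 0.38 in ovine cells), TAGLN (9.0 ± 0.14 in bovine and 7.18 ± 0.16 in ovine cells), SMTN (5.19 ± 0.12 in bovine and 3.91 ± 0.45 in ovine cells) and CD14 (2.27 ± 0.052 in bovine and 6.69 ± 0.17 in ovine cells). The levels of the 6 smooth muscle markers summed to 23.38 to 24.35 in bovine and 19.56 to 20.86 in ovine arrays. Those of the 6 leukocyte markers summed to 13.91 to 14.32 in bovine and 18.62 to 18.97 in ovine arrays, the gap lying in CD14. PTPRC, the marker of all leukocytes, was at the floor in both groups. In bulk RNA, fewer cells of a type and less RNA per cell cannot be told apart.

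Among the bright genes, 1629 (33.1%) were higher in bovine cells and 1183 (24%) lower, and 2111 did not pass the test. Most of these differences were small: the median size was 0.25, and 197 genes (4%) were at least 2-fold higher and 163 (3.31%) at least 2-fold lower. At least 4-fold differences were reached by 31 higher and 25 lower genes. The arrays of the 2 groups did not overlap in 45.9% of the bright genes, in either direction. The median difference over all bright genes was 0.06. The gene groups below are read against this median and against the shares of 33.1% higher and 24% lower. The same test called 32.1% of the 8618 bright probe sets higher and 24.3% lower. Without ovine replicate 1, 1561 bright genes were higher and 1284 lower, and the median was 0.03.

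**Figure D1:**
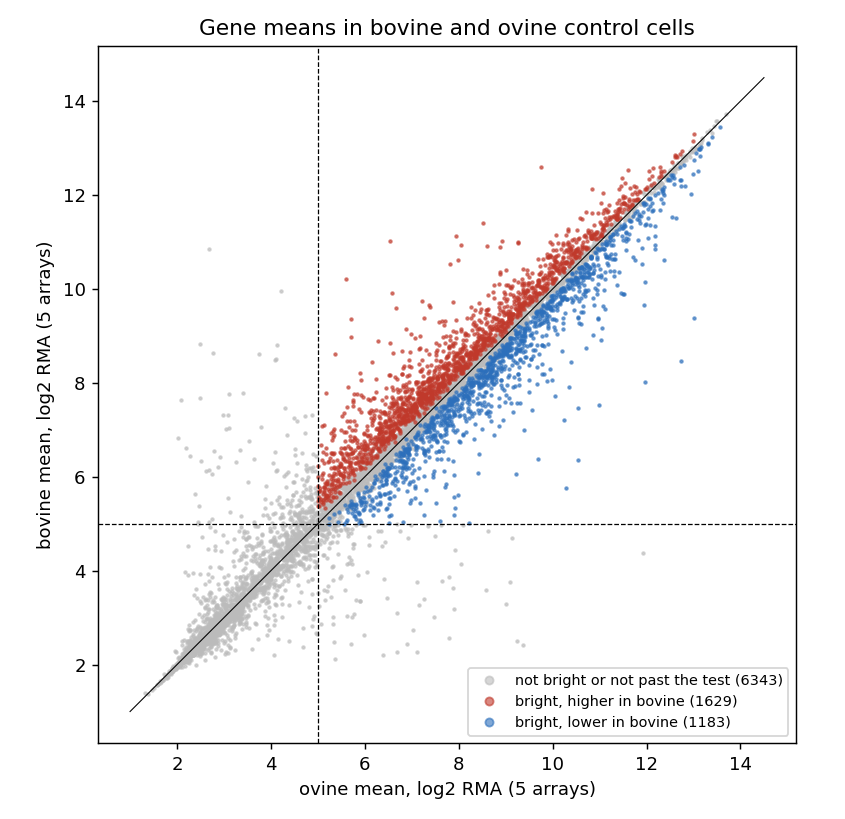
Each point is 1 of 9155 genes, placed by its ovine mean (x axis) and its bovine mean (y axis) over 5 arrays, both in log2 RMA units. Dashed lines mark the level of 5 that a bright gene reaches on both axes. Bright genes past the test are coloured by direction, 1629 higher and 1183 lower in bovine cells, and most of them lie near the diagonal of equal means.

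Over all 24016 probe sets the balance was different, with 3740 (15.6%) higher and 7120 (29.6%) lower in bovine cells. Of the lower calls, 3811 (53.5%) had both means under 3, against 60 (1.6%) of the higher calls. Their median difference was -0.04, and the median SD of probe sets at the floor was 0.0099 in bovine and 0.022 in ovine arrays. Centring each array on its median brought the lower calls to 2715 and the share of higher calls from 34.4% to 57.9%. A second quantile normalisation gave 47.4%, and centring on the bright probe sets 42.5%. Among the bright probe sets that share was 57%, and 47.3% to 62.1% under these scalings. Counted by gene, 2005 (21.9%) were higher and 2503 (27.3%) lower.

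Probe sets of one gene give a spread that replicate arrays do not. In 723 genes with at least 2 bright probe sets, the lowest and highest difference lay a median of 0.29 apart, with an upper quartile of 0.52 and an upper decile of 0.76. All probe sets of a gene shared their sign in 69.3% of these genes. Where the brightest probe set was past the test, all others had its sign in 329 of 428 genes (76.9%). Where it was also at least 2-fold, this held in 35 of 37 (94.6%). Opposite calls occurred in 36 genes. A difference under 0.29, however small its p, was thus no larger than the median gap between probe sets of one gene.

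KIT, the receptor for stem cell factor, differed most among bright genes that were higher in bovine cells. It read 10.31, 9.94, 10.4, 10.33 and 10.14 on the 5 bovine arrays and 4.91, 5.45, 5.73, 5.57 and 6.36 on the ovine arrays. The bovine arrays lay close together, and the ovine arrays were lower and more spread. The difference was 4.62 (SE 0.23, adjusted p = 6.97e-07), or 24.5-fold, and its other probe sets, not bright in both groups, differed by 4.97 and 1.83 and, at the floor, by -0.02, which did not pass. Averaged over its probe sets, KIT differed by 2.85. CXCR4, the receptor for the chemokine CXCL12, read 10.97, 11.15, 10.99, 10.96 and 11.06 in bovine and 6.37, 6.75, 6.69, 6.45 and 6.4 in ovine arrays. Its groups lay far apart, with a difference of 4.49 (SE 0.083, adjusted p = 8.82e-10), or 22.5-fold. F2R, the thrombin receptor PAR1, followed with 3.66 (SE 0.22, adjusted p = 2.55e-06), and its 2 other probe sets differed by 3.20 and 1.45.

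The other genes of this group of 15 were higher by 2.61 to 3.34, each with adjusted p of 3.75e-06 or less. One of them, LOC100196901, has no name. PSAT1 makes serine from a glycolytic intermediate (3.28). Its dimmer probe sets differed by 1.415 and by 0.283, the latter not past the test. IGFBP3 binds insulin-like growth factors (3.26), and its dimmer probe set differed by 4.98. FBLN5 assembles elastic fibres (3.18), ADAM19 is a membrane metalloprotease (2.94) and OLFML3 a secreted olfactomedin protein (2.62). HMGCS1, INSIG1, DHCR7 and SCD belong to sterol and fatty acid synthesis and are described with that group. EID1, which restrains the acetyltransferase p300 (2.9), and APBB1IP, which links the GTPase RAP1 to talin (2.61), completed the group.

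RPRM, a mediator of cell cycle arrest that p53 induces, differed most in the other direction. It read 5.89, 6.06, 5.5, 5.85 and 5.45 on the bovine and 9.98, 10.34, 10.36, 10.5 and 10.28 on the ovine arrays. The groups did not come near each other, and the difference was -4.54 (SE 0.14, adjusted p = 2.2e-08), so that ovine cells were 23.3-fold higher. CCN5, a matricellular protein of the CCN family, read 8.51, 8.65, 8.46, 8.47 and 8.27 in bovine and 12.85, 12.75, 12.66, 12.69 and 12.73 in ovine arrays. That is a difference of -4.26 (SE 0.067, adjusted p = 3.34e-10). ISG12(B), an interferon-inducible gene (-4.2), and ALDH1A1, which makes retinoic acid (-3.95), were the next in size.

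The remaining genes lower in bovine cells fell into several roles. CCL26 (-3.63) and CXCL8 (-3.45) are chemokines. VEGFC (-3.09) is the growth factor of lymphatic vessels, and KLF4 (-3.15) a transcription factor that endothelial cells induce under flow. P3H2 (-3.21) hydroxylates prolines of basement membrane collagen, and AOX1 (-2.44) is an aldehyde oxidase. RGS7 (-2.59) shortens G protein signals, MARCHF3 (-2.72) is a membrane ubiquitin ligase and API5 (-2.53) an inhibitor of apoptosis. BEND6 (-3.31) and LRP11 (-3.04) were also among them. Every one of these 15 genes had an adjusted p of 3.94e-06 or less.

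**Figure D2:**
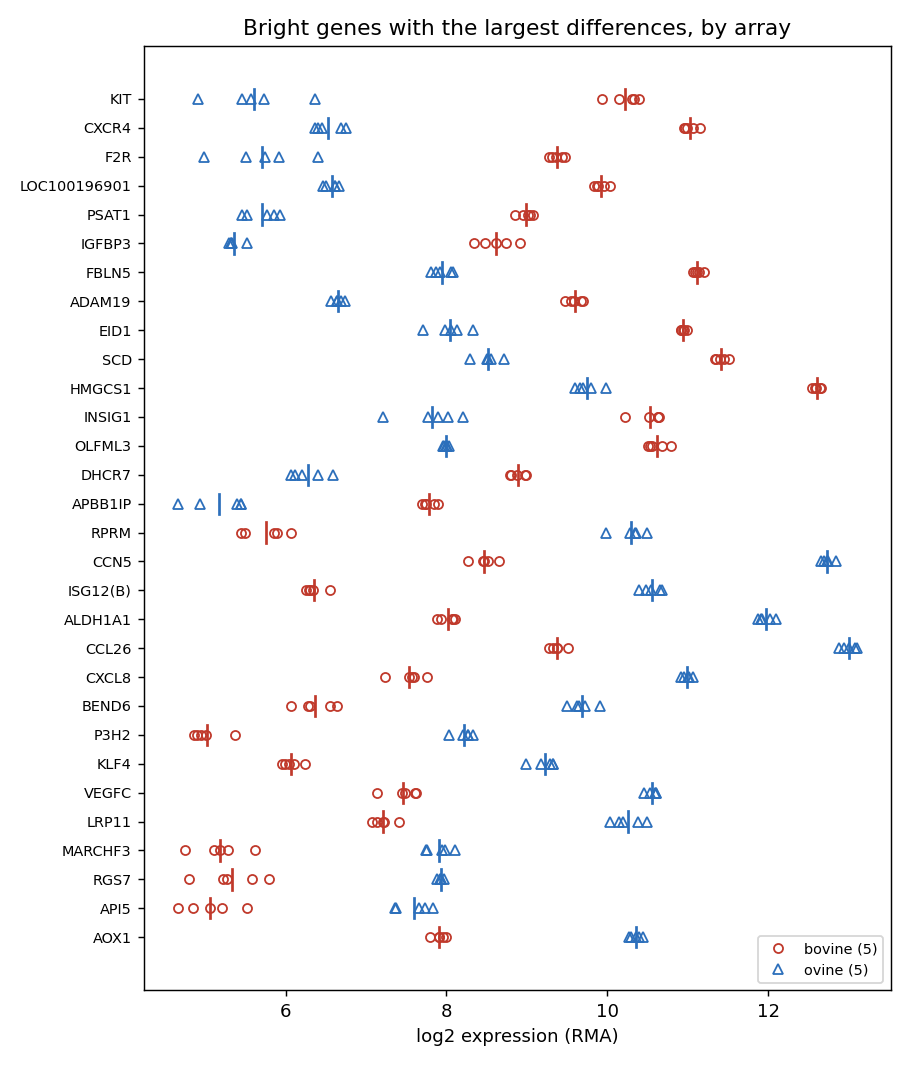
Log2 expression (x axis, RMA) of the 15 bright genes with the largest difference in each direction, 1 row per gene. Circles are the 5 bovine and triangles the 5 ovine arrays, and short bars are the group means. The genes were picked among those past the test whose groups do not overlap, so the gap in every row follows from that choice. The differences range from KIT, with bovine and ovine means of 10.22 and 5.61, to RPRM, with 5.75 and 10.29.

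Of 23 measured leukocyte adhesion genes, 5 were bright in ovine cells only, among them molecules that mark activated endothelium. VCAM1, which binds the integrin of lymphocytes and monocytes, read 3.0, 2.65, 1.9, 2.5 and 2.0 on the bovine and 9.35, 9.32, 9.54, 9.3 and 9.37 on the ovine arrays. Bovine values were thus at the floor, and the difference was -6.97 (SE 0.20, adjusted p = 1.33e-08). SELE, or E-selectin, read 3.15, 3.21, 3.18, 3.21 and 3.18 in bovine and 7.61, 7.68, 8.01, 8.23 and 7.98 in ovine arrays. ICAM1, the ligand of leukocyte integrins, read 4.86, 4.89, 4.49, 5.14 and 4.81 against 8.56, 8.76, 8.54, 8.67 and 8.61. SELP, or P-selectin, read 4.12, 3.63, 4.01, 3.64 and 3.94 against 7.67, 7.83, 7.99, 7.69 and 7.84. In these 4 genes the ovine arrays were higher without overlap, by 3.79 to 6.97 on the log2 scale. Lack of overlap, in either direction, was seen in 53% of all probe sets. CEACAM1 (3.91 ± 0.26 in bovine and 5.85 ± 0.56 in ovine cells) was the fifth member bright in ovine cells only, and no member was bright in bovine cells only. These 5 are all the members bright in one group only.

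Among all genes, 139 (1.52%) were bright in ovine cells only and 197 (2.15%) in bovine cells only. Of the 11 adhesion genes bright in both groups, 1 was higher and 4 were lower, none 2-fold, and the median was -0.10. They are broadly expressed molecules, among them the tetraspanins CD151 (-0.84), CD9 (-0.37) and CD81 (0.30) and CD47 (-0.57), the signal that inhibits engulfment by macrophages.

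Chemokines were lower in bovine cells in 7 of the 8 bright members, 6 of them by at least 2-fold, with a median of -1.38 (-1.42 without ovine replicate 1). CXCL8, which attracts neutrophils, read 7.6, 7.57, 7.75, 7.54 and 7.23 on the bovine and 10.96, 11.06, 11, 11.01 and 10.92 on the ovine arrays, 11-fold apart (-3.45 (SE 0.084, adjusted p = 4.87e-09)). CCL26, an attractant of eosinophils, read 9.27, 9.51, 9.37, 9.32 and 9.38 against 13.1, 13.08, 12.94, 12.88 and 13. Both genes were expressed in all 10 arrays, with ovine values higher throughout. CXCL5 (-2.29), CXCL12 (-1.49) and CCL25 (-1.15) differed in the same direction, as did CXCL16 (-0.60). CXCL2, which is related to CXCL8, was at the floor in bovine cells (2.49 ± 0.18 in bovine and 9.23 ± 0.13 in ovine cells). GRO1 differed by -1.27 on its brightest probe set and by -4.32 to -5.07 on 3 others, so its size is uncertain. CXCL2 and GRO1 are closely related copies, and their probe sets may share signal. CCL2, the attractant of monocytes, was the exception and was higher in bovine cells (0.79; with its probe sets averaged 0.37, adjusted p = 0.0662).

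The signalling genes upstream of these molecules were mixed. Of 23 bright genes of NF-κB and inflammatory signalling, 7 were higher and 10 lower, 3 of them at least 2-fold, with a median of -0.13. The lower ones included targets of NF-κB: CSF1, the macrophage growth factor (-1.89), NFKBIZ (-1.25) and the inhibitor NFKBIA (-1.12). IRAK4, a kinase of Toll-like receptor signalling (-0.98), and the cytokine IL18 (-0.84) were also lower. The 7 higher members were the kinases RIPK1 (0.47) and IRAK1 (0.51), the interleukin-1 receptor chains IL1R1 (0.40) and IL1RAP (0.47), the adaptor MYD88 (0.41), the NF-κB subunit RELA (0.33) and the endotoxin receptor TLR4 (0.28). IRAK1 differed by 1.08 on its other probe set. Of 18 alternatives, 5 took away the call of IL1R1, 2 that of IL1RAP and 8 that of MYD88. The call of RELA was lost in 5 and that of TLR4 in 2. CD14, the coreceptor of TLR4 for endotoxin, read 2.33, 2.21, 2.28, 2.22 and 2.29 on the bovine and 6.42, 6.67, 6.86, 6.67 and 6.83 on the ovine arrays. It was bright in ovine cells only, on 1 of its 2 probe sets. The other lay at the floor in both groups.

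**Figure D3:**
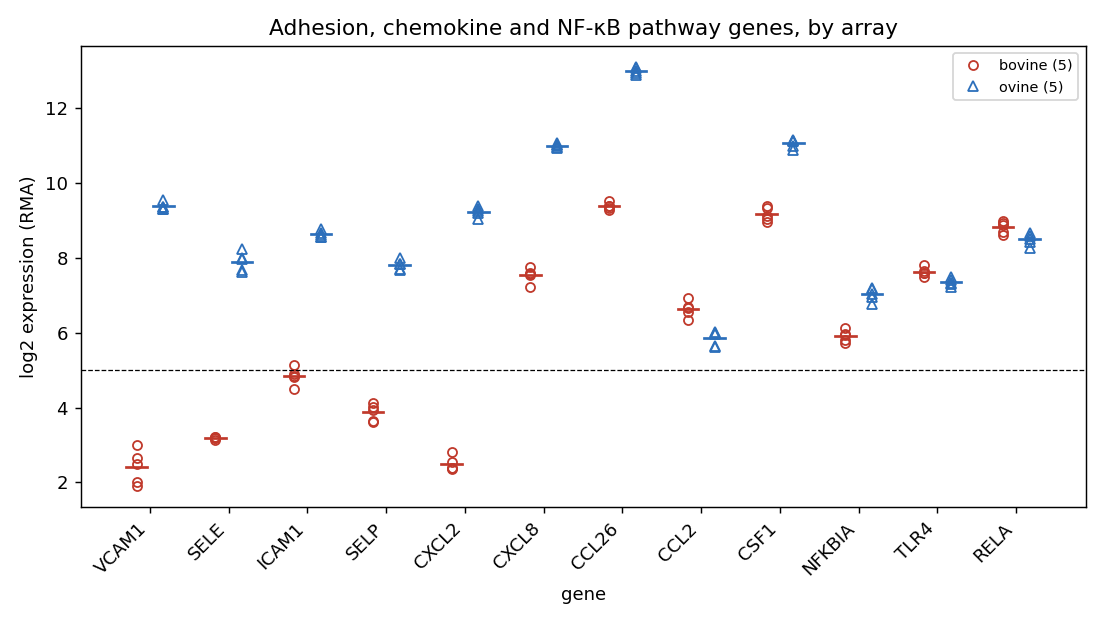
Log2 expression (y axis, RMA) of 12 adhesion, chemokine and NF-κB pathway genes in each array. Circles are 5 bovine and triangles 5 ovine arrays, bars are group means, and the dashed line marks the level of 5. VCAM1 runs from a bovine mean of 2.41 to an ovine mean of 9.38, and CCL2, TLR4 and RELA are higher in bovine cells by 0.79, 0.28 and 0.33, calls that were each lost under at least 1 alternative. The 12 genes were picked after their values were seen.

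Interferon response genes did not share one direction. Of 22 bright members, 9 were higher and 4 lower, with a median of 0.079, close to that of all bright genes. IFI6 (2.32) and GBP5 (1.26) were at least 2-fold higher, and PARP14 (-0.96) and GBP1 (-0.75) were lower. RSAD2, an antiviral enzyme, was bright in bovine cells only (5.34 ± 0.06 in bovine and 3.88 ± 0.48 in ovine cells). ISG12(B), lower in bovine cells, was not a member of the list. Antigen presentation was likewise mixed, with 8 of 15 higher and 3 lower. The immunoproteasome subunits PSMB9 (0.93) and PSMB8 (0.82) and the chaperone CALR (1.24) were higher, and ERAP1, which trims peptides for presentation, was lower (-2.08).

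Of 15 bright cholesterol synthesis genes, 12 were higher in bovine cells and none lower, 11 of them by at least 2-fold. Over all 22 measured members, 14 were higher and 1 lower. Their median was 1.82, against 0.06 over all bright genes, and 1.72 without ovine replicate 1. HMGCS1, which forms the precursor of mevalonate, read 12.59, 12.66, 12.54, 12.58 and 12.65 on the bovine and 9.98, 9.8, 9.66, 9.7 and 9.6 on the ovine arrays. No ovine array came near a bovine one, and the difference was 2.86 (SE 0.067, adjusted p = 4.29e-09), or 7.25-fold. A dimmer HMGCS1 probe set differed by 4.14.

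Along the pathway, ACAT2 (2.05) and HMGCS1 precede mevalonate. FDPS (2.13) and FDFT1 (1.82) build squalene, which SQLE (2.11) oxidises. FDFT1 differed by 3.19 on a dimmer probe set and by -0.061 on one at the floor. LSS, which closes the sterol ring, was bright in bovine cells only (6.93 ± 0.30 in bovine and 4.73 ± 0.21 in ovine cells). CYP51A1 (2.21), MSMO1 (1.72) and NSDHL (1.51) remove methyl groups, and DHCR7 (2.61) performs the last reduction. DHCR7 read 8.79, 8.98, 8.8, 8.87 and 8.98 in bovine and 6.59, 6.4, 6.21, 6.11 and 6.07 in ovine arrays. MVD, the mevalonate decarboxylase, was also bright in bovine cells only (5.22 ± 0.34 in bovine and 4.08 ± 0.18 in ovine cells).

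Regulators of the pathway are on the same list. SREBF2, the transcription factor that drives sterol synthesis, differed by 1.39 (SE 0.069, adjusted p = 6.16e-07). SREBF1 differed by 0.64. INSIG1, which holds these factors in the endoplasmic reticulum and is itself one of their targets, was higher by 2.7. The 3 bright members that did not pass were GGPS1 (0.074), INSIG2 (0.25) and EBP (0.27).

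Of 31 bright genes of fatty acid and lipid metabolism, 19 were higher and 3 lower, with a median of 0.36. SCD, which makes monounsaturated fatty acids, read 11.4, 11.34, 11.35, 11.51 and 11.45 on the bovine and 8.55, 8.72, 8.29, 8.52 and 8.51 on the ovine arrays. It was higher in bovine cells by 2.89 (SE 0.072, adjusted p = 5.54e-09). The enzymes that supply acetyl-CoA and build palmitate, ACLY (1.06), ACSS2 (1.4) and FASN (0.96), and ME1, a source of NADPH (1.05), were higher. ACSL3, which activates fatty acids and sits on lipid droplets, differed by 1.89, and by 1.46 and 1.76 on its other probe sets. The desaturase FADS2 (6.43 ± 0.10 in bovine and 2.27 ± 0.15 in ovine cells) and the elongase ELOVL6 (6.46 ± 0.19 in bovine and 4.52 ± 0.37 in ovine cells) were bright in bovine cells only. In total 3 members were bright in bovine cells only and 2 in ovine cells only. The 2 on the ovine side were lower in bovine cells, with differences of -2.21 and -1.63. LIPA, the lysosomal lipase, was lower (-1.44), as was ACSL5 (-0.70). FABP4, a fatty acid carrier, gave 0.0085 on its brightest probe set, which did not pass the test, and was higher by 0.49 on the other.

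Cell cycle genes were higher in bovine cells in 49 of 59 bright members, 3 were lower, and 16 were at least 2-fold higher. The median was 0.80, and 0.73 without ovine replicate 1, where 47 were higher and 13 at least 2-fold higher. AURKB, a kinase of chromosome segregation, read 7.84, 7.69, 7.95, 7.89 and 7.69 on the bovine and 6.04, 5.85, 6.15, 6.47 and 6.66 on the ovine arrays. The groups did not overlap, and the difference was 1.58 (SE 0.15, adjusted p = 4.16e-05). Members with roles in mitosis, picked after their values were seen, included PLK1 (1.41), CDC20 (1.42) and the cyclins CCNB1 (1.35), CCNB2 (1.26) and CCNA2 (1.2). Also among them were the motors KIF20A (1.28) and KIF23 (1.26) and the condensin subunits NCAPG (1.31) and NCAPH (1.3). KIF20A differed by 1.93 on its other probe set.

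Members with roles in DNA replication, picked in the same way, were also higher. The replicative helicase subunits MCM3, MCM4, MCM6 and MCM7 differed by 0.39 to 0.94, PCNA by 0.46 and thymidylate synthase TYMS by 0.83. The ribonucleotide reductase subunits RRM1 (0.21) and RRM2 (0.35) were higher, calls lost in 2 and 9 of 18 alternatives. LMNB1, a lamin of the nuclear envelope, differed by 1.54. Cyclins of the first growth phase were divided. CCND1, which drives entry into the cycle, was lower in bovine cells (-1.52 (SE 0.15, adjusted p = 6.34e-05)), and CCND3 was lower by a difference of -0.25. CCND2 was bright in bovine cells only (6.2 ± 0.16 in bovine and 2.88 ± 0.49 in ovine cells). RFC3, a clamp loader subunit, was the third lower member (-0.058), and did not pass in 14 of 18 alternatives.

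**Figure D4:**
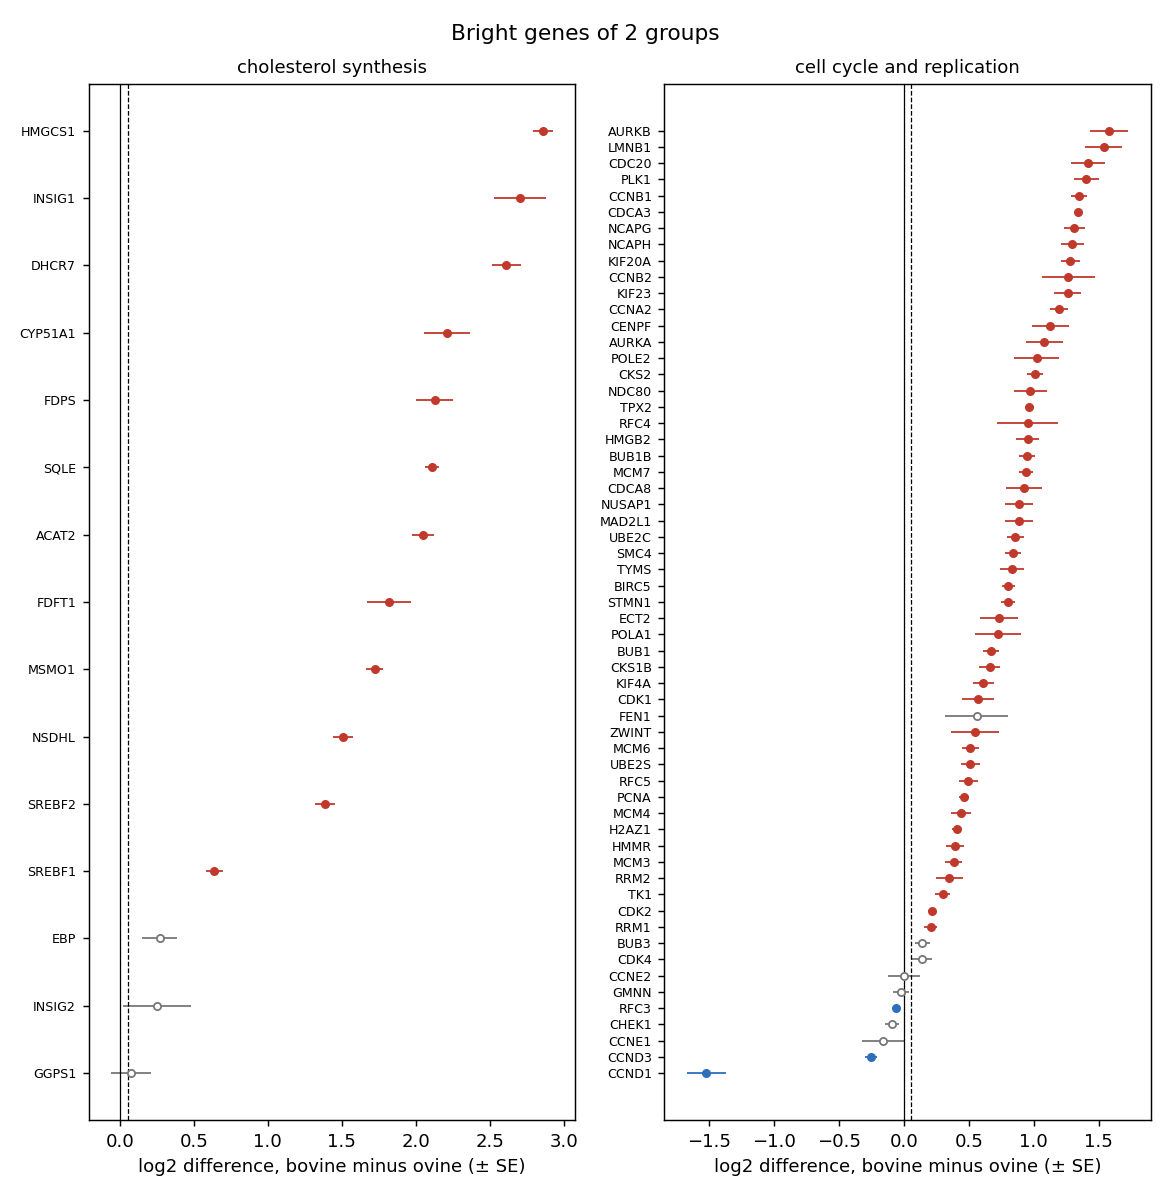
Difference in log2 expression, bovine minus ovine (x axis), of the 15 bright cholesterol synthesis genes and the 59 bright cell cycle genes, 1 row per gene with its SE over 5 against 5 arrays. Filled points passed the limma test, and the dashed line is the median of all bright genes, 0.06. HMGCS1 leads the sterol genes at 2.86, and CCND1 stands alone on the left among cell cycle genes at -1.52.

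Genes of growth arrest and p53 signalling were lower more often than higher, 13 against 6 of 22 bright members, with a median of -0.28. CDKN1A, the p21 inhibitor of cyclin-dependent kinases, read 9.3, 9.47, 9.41, 9.34 and 9.3 on the bovine and 10.98, 11.17, 11.11, 10.71 and 10.89 on the ovine arrays. Ovine arrays were higher without overlap (-1.61 (SE 0.085, adjusted p = 8.95e-07)). CCNG1 (-0.77), SESN1 (-0.62), SESN2 (-0.64) and BAX (-0.51), which p53 induces, were lower in bovine cells, as were RBL2 (-0.54) and RB1 (-0.38; call lost in 10 of 18 alternatives), of the retinoblastoma family. BIRC5, a survivin that also serves mitosis (0.81), and the inhibitor CDKN1C (0.74) were higher. RPRM, the p53 target described above, belongs beside this group in function but was not on the list.

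The list of heat shock and endoplasmic reticulum stress was balanced, with 16 of 44 bright members higher and 15 lower and a median of 0.01. Among its higher members, and picked after their values were seen, were enzymes of serine and one-carbon metabolism that ATF4 induces. PSAT1 read 8.95, 9.01, 9.04, 9.07 and 8.85 on the bovine and 5.46, 5.85, 5.52, 5.77 and 5.93 on the ovine arrays, a difference of 3.28 (SE 0.10, adjusted p = 1.55e-08). PHGDH, the first enzyme of serine synthesis (1.58), PSPH, the last (0.44), and SHMT2 (0.71) and MTHFD2 (1.02) of the mitochondrial folate pathway were higher as well. ATF4 itself differed by 0.30 and did not pass in 11 of 18 alternatives. SLC3A2, an amino acid carrier subunit that ATF4 also induces, was lower (-0.87), as was ATF3 (-1.94). The chaperones HSPA5 (-0.10) and HSP90AA1 (0.013) did not pass the test.

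Of 25 bright genes of collagens and basement membrane, 6 were higher and 14 lower, with a median of -0.21. Lower members included the laminin chains LAMB1 (-0.54) and LAMA4 (-0.36), the heparan sulfate proteoglycan HSPG2 (-0.49), COL27A1 (-1.52) and the collagen-modifying enzymes P3H2, P4HA1 (-0.83) and PLOD2 (-0.38). LAMA4 differed by -0.87 on its other probe set. The laminin chain LAMC1 was lower on its brightest probe set (-0.39) and higher on another (0.25). On 2 more it did not pass (0.25 and 0.069). COL4A1, the main basement membrane collagen chain, was higher by 0.93 on its brightest probe set and by 2.86 on the other. COL1A2, an interstitial collagen chain, was higher by 0.91 and by 0.29 on its other probe set. COL15A1, a collagen of the zone beneath the endothelium, was bright in bovine cells only. It read 10.84, 10.93, 10.82, 10.87 and 10.83 on the bovine and 2.89, 2.86, 2.78, 2.6 and 2.3 on the ovine arrays, and both of its probe sets gave ovine means under 3.

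Of 8 bright genes of elastic fibres, microfibrils and crosslinking, 2 were higher in bovine cells and 4 lower, with a median of -0.038. FBLN5 read 11.06, 11.2, 11.09, 11.11 and 11.14 on the bovine and 7.86, 8.09, 7.91, 7.8 and 8.05 on the ovine arrays, 9.04-fold apart (3.18 (SE 0.056, adjusted p = 7.04e-10)). FBLN1 (8.61 ± 0.12 in bovine and 3.74 ± 0.48 in ovine cells), MFAP5 (8.5 ± 0.091 in bovine and 4.11 ± 0.085 in ovine cells) and LTBP1 (5.55 ± 0.47 in bovine and 3.09 ± 0.10 in ovine cells) were bright in bovine cells only. FBN1, the core of microfibrils, was lower (-0.46), and TGM2, a crosslinking enzyme, was lower (-1.13).

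Matrix proteases and their inhibitors were lower in bovine cells in 13 of 22 bright members and higher in 2, with a median of -0.23. The inhibitors TIMP2 (-1.83), TIMP3 (-1.13) and TIMP1 (-0.93) were all lower, and TIMP2 was lower on 3 probe sets. The lysosomal cathepsins CTSV (-1.59), CTSZ (-1.05), CTSK (-1.05) and CTSD (-0.62) were lower too. ADAM19 was the one member at least 2-fold higher. MMP2, a gelatinase, gave -0.081 and did not pass. ADAMTS1 was bright in bovine cells only (6.89 ± 0.15 in bovine and 4.33 ± 0.10 in ovine cells).

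Of 19 bright proteoglycan genes, 6 were higher and 6 lower, against 33.1% and 24% of all bright genes. BGN (0.93, and 1.48 on another probe set) and GPC1 (1.08), a small matrix proteoglycan and a cell surface one, were higher, and SRGN lower (-0.44). VCAN, or versican, was lower on its brightest probe set (-0.44) and higher on 2 others (0.25 and 0.60), so it has no settled direction. DSE, the epimerase that turns chondroitin into dermatan sulfate, was bright in ovine cells only, with 3.49, 3.0, 3.12, 3.5 and 3.32 on the bovine and 8.82, 8.93, 9.14, 9.06 and 9.05 on the ovine arrays. Another member bright in ovine cells only differed by -2.65, and the 2 bright in bovine cells only differed by 2.75 and 3.99. Of 14 bright integrin genes, 6 were higher and 1 lower. The fibronectin receptor subunit ITGA5 (0.90) and the laminin receptor subunit ITGA3 (0.65) were among the higher ones. ITGB1, the β1 chain shared by many integrins, was the lower one (-0.18; call lost in 9 of 18 alternatives).

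Of 26 bright genes of endothelial junctions and identity, 12 were higher in bovine cells and 6 lower, 3 and 1 of them at least 2-fold, with a median of 0.13. Without ovine replicate 1, 11 were higher and 6 lower, and none was at least 2-fold lower. ROBO4, a guidance receptor that steadies the barrier, read 9.21, 9.43, 9.23, 9.23 and 9.46 on the bovine and 7.57, 7.76, 7.7, 7.64 and 7.51 on the ovine arrays, a difference of 1.68 (SE 0.066, adjusted p = 1.28e-07). SOX18 (1.4), CD93 (1.29), TEK (0.67) and NOS3 (0.67) were higher as well. ERG (-0.20) and ENG (-0.29) were lower, both by less than the median gap of 0.29 between probe sets of one gene. PECAM1 (0.049) did not pass, but its other probe set differed by 0.54, and CDH5 differed by 0.17 and by 1.01 on its other probe set. The call of CDH5 was lost in 7 and that of MCAM (-0.13) in 11 of 18 alternatives. PLVAP, the diaphragm protein of fenestrae and caveolae, was bright in bovine cells only (6.57 ± 0.13 in bovine and 3.34 ± 0.17 in ovine cells).

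Of 14 bright genes tied to arterial, venous and lymphatic fate, 6 were higher and 5 lower, 4 and 3 of them at least 2-fold. The Notch genes DLL4 (1.63) and NOTCH4 (1.14), which mark arteries, were higher in bovine cells. NR2F2, a factor of venous fate, was higher too (1.3), and its relative NR2F1 was bright in ovine cells only (3.36 ± 0.51 in bovine and 5.89 ± 0.089 in ovine cells). JAG1, another Notch ligand, was lower on its brightest probe set (-0.50) and higher on the other (1.74), so it has no settled direction. The receptor CXCR4 was higher and its ligand CXCL12 lower (7.01 ± 0.15 in bovine and 8.5 ± 0.15 in ovine cells). VEGFC read 7.49, 7.45, 7.62, 7.61 and 7.13 on the bovine and 10.46, 10.59, 10.53, 10.6 and 10.6 on the ovine arrays. Of 5 bright genes of regional patterning, 2 were higher in bovine cells and 2 lower, with a median of -0.21 (-0.24 without ovine replicate 1). HOXB4 differed by 2.29 (SE 0.12, adjusted p = 9.11e-07) and HOXA5 by 0.62, and HOXA4 was bright in bovine cells only (5.58 ± 0.15 in bovine and 4.18 ± 0.24 in ovine cells). MEIS2 was lower by -0.45 on its brightest probe set and gave 0.04 on the other.

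Angiogenic growth factors and their receptors were lower in bovine cells in 13 of 22 bright members and higher in 5. The median was -0.50, and -0.24 with the probe sets of each gene averaged. Besides VEGFC, the fibroblast growth factors FGF2 (-1.34), the placental growth factor PGF (-0.42), the hepatocyte growth factor receptor MET (-1.77) and the ephrin receptor EPHA2 (-0.97) were lower. FGF1 was lower on its brightest probe set (-0.70), while its 3 other bright probe sets did not pass (0.033, -0.04 and -0.23). VEGFA (0.74) and VEGFB (0.44) were higher. Binding proteins of insulin-like growth factors went both ways, with IGFBP3 higher, IGFBP6 lower (-1.58) and IGFBP4 (0.11) and IGFBP7 (0.057) not past the test.

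Of 21 bright TGF-β, BMP and Wnt genes, 8 were higher in bovine cells and 6 lower, with a median of 0.086 that was -0.0098 without ovine replicate 1. ID1, an inhibitor of differentiation induced by BMP receptors, read 6.93, 7.23, 7.07, 6.68 and 7.06 on the bovine and 9.35, 9.4, 9.5, 9.26 and 9.44 on the ovine arrays, -2.4 (SE 0.094, adjusted p = 1.27e-07). ID2 (-2.15) and ID3 (-1.06) were lower as well. The ligands BMP4 (1.97) and TGFB2 (1.73), the signal carriers SMAD3 (0.74) and SMAD4 (0.62) and the receptor ACVRL1 (0.42) were higher. The receptor BMPR2 was lower (-0.28), a call lost in 9 of 18 alternatives. FST, which binds activins, was lower (-1.07).

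**Figure D5:**
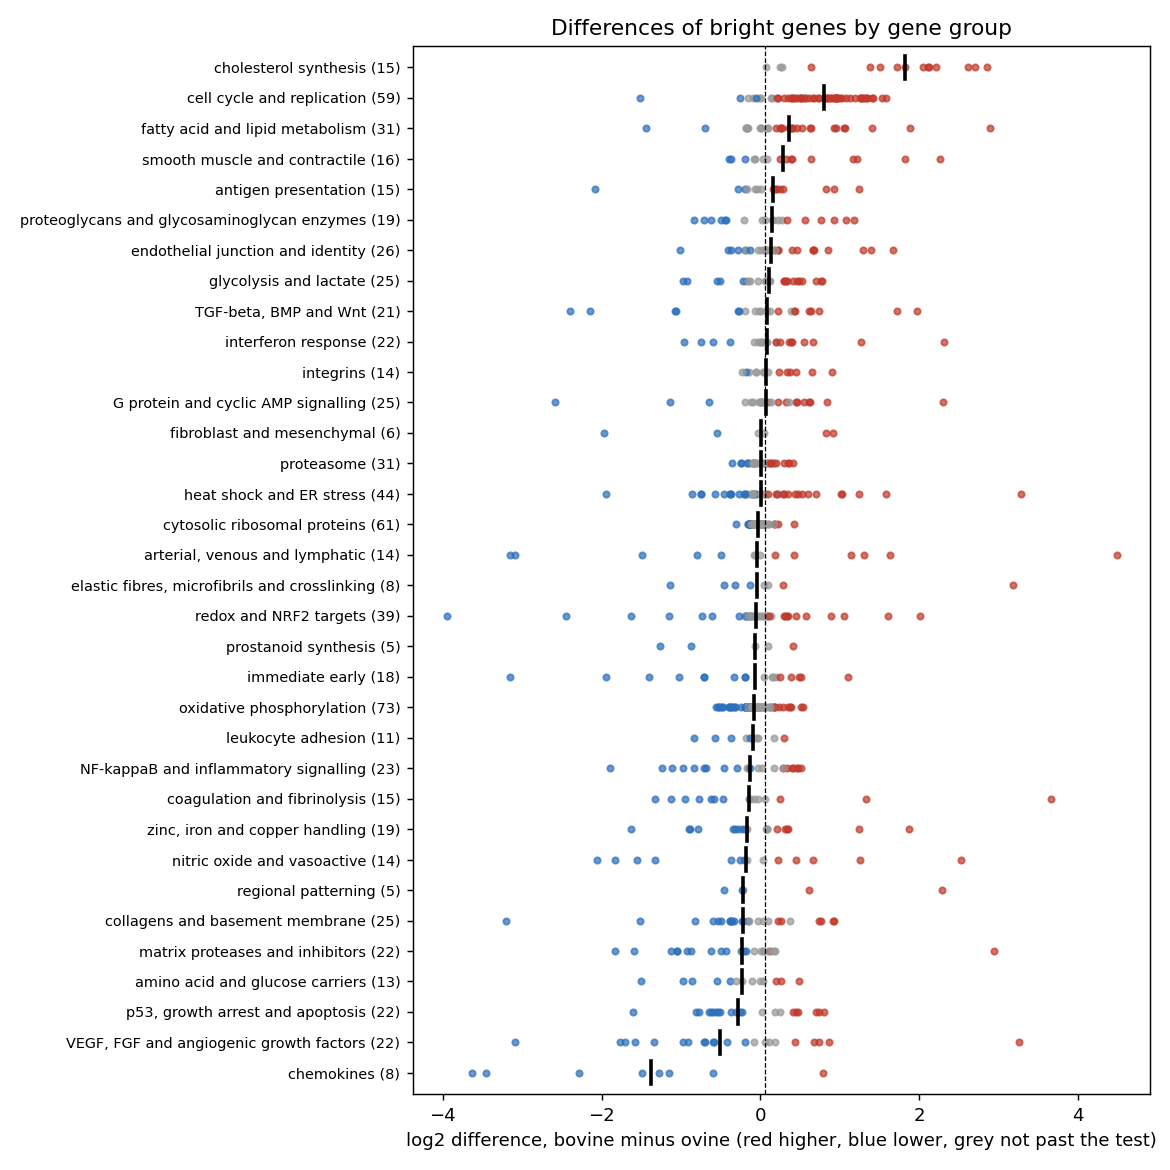
Difference in log2 expression, bovine minus ovine (x axis), of every bright gene in 34 gene groups, 1 point per gene and 1 row per group in order of the median, with the number of bright genes in brackets. Bars are group medians and the dashed line is the median over all bright genes, 0.06. Cholesterol synthesis (1.82) and cell cycle (0.80) lie at one end and chemokines (-1.38) at the other.

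Of 14 bright genes of nitric oxide and vascular tone, 5 were higher in bovine cells and 7 lower. GUCY1B1, a subunit of the soluble guanylate cyclase that senses nitric oxide, read 9.69, 9.87, 9.77, 9.7 and 9.7 on the bovine and 7.24, 7.22, 7.17, 7.28 and 7.17 on the ovine arrays, a difference of 2.53 (SE 0.039, adjusted p = 2.69e-10). ECE1, which activates endothelin, was higher (1.25, and 0.23 on another probe set, which did not pass), and EDN1, endothelin itself, gave 0.03 and did not pass. ADM, the vasodilator adrenomedullin, read 9.09, 9.06, 9.09, 9.04 and 8.86 against 10.99, 10.84, 11.02, 10.73 and 10.71 and was lower in bovine cells (-1.83 (SE 0.073, adjusted p = 1.38e-07)). RAMP3, a partner of its receptor, was bright in ovine cells only (2.21 ± 0.15 in bovine and 6.38 ± 0.17 in ovine cells). The purine receptor P2RY1 (-2.06), the potassium channel KCNN4 (-1.55) and DDAH2, which degrades an inhibitor of nitric oxide synthase (-1.32), were lower.

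In prostanoid synthesis, PTGIS, the prostacyclin synthase, was bright in ovine cells only. It read 4.05, 4.09, 3.94, 4.21 and 4.41 on the bovine and 7.96, 8.24, 8.12, 7.94 and 7.96 on the ovine arrays, without overlap. TBXAS1, the thromboxane synthase, was bright in bovine cells only (5.79 ± 0.28 in bovine and 4.31 ± 0.45 in ovine cells), as was the prostaglandin carrier SLCO2A1 (6.11 ± 0.17 in bovine and 4.37 ± 0.14 in ovine cells). The cyclooxygenase PTGS1 was higher (0.41, and 0.78 on its other probe set) and the prostaglandin D synthase PTGDS lower (-1.26).

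Coagulation genes were lower in bovine cells in 8 of 15 bright members and higher in 3. Among the lower members were THBD, or thrombomodulin (-1.33), PROS1, or protein S (-1.12), and PROCR, the protein C receptor (-0.77). The inhibitor TFPI2 was lower as well (-0.95). F2R and PLAT, the tissue plasminogen activator (1.34), were higher. F5, the coagulation factor V, was bright in bovine cells only, with 9.01, 8.75, 8.78, 8.73 and 8.88 on the bovine and 2.43, 2.43, 2.79, 2.42 and 2.41 on the ovine arrays.

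Redox genes showed single large differences in both directions around a median of -0.055. NQO1, a quinone reductase, read 8.64, 8.6, 8.73, 8.58 and 8.59 on the bovine and 6.45, 6.45, 6.63, 6.88 and 6.64 on the ovine arrays (2.02 (SE 0.081, adjusted p = 1.41e-07)). HMOX1, or heme oxygenase, was higher (1.61), as were PRDX1 (0.30) and GSR (0.34; call lost in 7 of 18 alternatives). These are targets of NRF2, but TXNRD1 (-0.11) and NFE2L2, which encodes NRF2 (-0.055), did not pass. ALDH1A1 read 7.93, 8.07, 8.09, 8.11 and 7.88 against 12.1, 12.02, 11.91, 11.88 and 11.93, lower in bovine cells. MT2A, a metallothionein (-1.63), and XDH, the xanthine dehydrogenase (-1.15), were also lower. NOX4, an oxidase that makes hydrogen peroxide, was bright in bovine cells only (6.59 ± 0.35 in bovine and 4.52 ± 0.10 in ovine cells). In total 11 of 39 bright members were higher and 10 lower, against 33.1% and 24% of all bright genes.

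Immediate early genes were lower in 9 of 18 bright members and higher in 5. KLF4 read 5.96, 6.24, 5.99, 6.11 and 6.04 on the bovine and 8.99, 9.29, 9.18, 9.33 and 9.33 on the ovine arrays (-3.15 (SE 0.077, adjusted p = 5.14e-09)). DUSP1 (-1.4), SGK1 (-1.02), CCN1 (-0.71) and IER3 (-0.71) were lower, as was JUNB (-0.33; call lost in 5 of 18 alternatives), and EGR1 was higher (1.1). JUN gave opposite calls on 2 probe sets (-0.19 and 0.45), and MYC gave 0.042 and did not pass.

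Over all bright genes, 33.1% were higher and 24% lower. Of 19 bright genes of metal handling, 6 were higher and 9 lower. ACO1, an iron-responsive protein, was higher by 1.88, and its ovine mean of 6.8 held one array at 5.78 below the others at 7 or more. STEAP3, which reduces iron, was higher (1.25), and the copper chaperone ATOX1 was lower (-0.89). Among 13 bright carriers of amino acids and glucose, 3 were higher and 5 lower, with SLC12A2, a sodium, potassium and chloride carrier, at -1.5 and the glucose carrier SLC2A1 at 0.48. Of 25 bright G protein and cyclic AMP genes, 10 were higher and 3 lower. GNB4 was higher (2.31). GNAI1, an inhibitory G protein subunit, was bright in ovine cells only (3.75 ± 0.32 in bovine and 9.1 ± 0.21 in ovine cells), and ADCY2, an adenylyl cyclase, in bovine cells only (8.63 ± 0.14 in bovine and 2.77 ± 0.20 in ovine cells).

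Of 38 measured contractile genes, 16 were bright in both groups. Of these, 9 were higher in bovine cells and 3 lower, with a median of 0.28. TAGLN read 8.87, 9.15, 8.89, 9.14 and 8.95 on the bovine and 7.11, 7.15, 7.46, 7.11 and 7.05 on the ovine arrays. CSRP2 (2.27) was higher too. None of the 3 lower ones was at least 2-fold lower. Outside these 16 genes, CDH2, or N-cadherin, was lower (-1.97). ZEB1, a factor of mesenchymal fate, was higher (0.83). VIM, vimentin, gave 0.033 and did not pass. CKM, the muscle creatine kinase, was bright in ovine cells only (2.57 ± 0.15 in bovine and 7.79 ± 0.25 in ovine cells), on 1 of its 2 probe sets. KRT7, a keratin of simple epithelia, was bright in bovine cells only (7.32 ± 0.17 in bovine and 2.97 ± 0.066 in ovine cells).

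None of 61 bright cytosolic ribosomal protein genes was 2-fold different; 4 were higher, 11 lower and 46 not past the test. Their median was -0.03. Of 73 respiratory chain genes, all bright, 11 were higher, 26 lower and none 2-fold different (median -0.076). Of 31 bright proteasome genes, 9 were higher and 6 lower (median 0.011), against 33.1% and 24% of all bright genes. Of 25 bright glycolysis genes, 11 were higher and 5 lower, led by the lactate carrier SLC16A3 (-0.97), PFKFB3 (-0.93), TKT (0.78) and PKM (0.76). The sign of the ribosomal median turned under a second quantile normalisation (0.02) and that of the proteasome without ovine replicate 1 (-0.06).

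Outside the bright genes, 25 genes had an ovine mean of 7 or more and a bovine mean under 5. The 8 of largest difference were LOC514170, VCAM1, CXCL2, DSE, GNAI1, CKM, ARHGAP18 and PLAC8B, with differences of -7.55 to -4.86. ARHGAP18, an inactivator of RHOA, read 3.68, 3.63, 3.51, 3.7 and 3.46 on the bovine and 8.47, 8.49, 8.77, 8.53 and 8.61 on the ovine arrays. Where a group lies at the floor, the difference is a lower bound in signal.

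In the other direction, 22 genes had a bovine mean of 7 or more and an ovine mean under 5. For these a low ovine value and poor match of sheep RNA to the probes cannot be told apart. The same holds for every gene given as bright in bovine cells only, and the match was not measured for bright genes either. Of the 22 genes, the 6 of largest difference were COL15A1 (8.17), F5 (6.33), ADCY2 (5.86), TPD52 (5.74), PRSS2 (5.54) and BEX3 (5.18). Among bright genes, the share called lower in bovine cells moved with the level, and the share called higher moved little. Among genes whose lower group mean was 5 to 6, 31.2% were higher and 17.5% lower in bovine cells, and among those at 10 or more 31.1% and 28.8%. The median difference went from 0.10 to 0.0098 between these levels.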

How the data were processed

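Total RNA of the 10 samples was labelled from 1 µg and hybridised to 1 bovine Affymetrix array each, per the labels' protocols. Per the submitters' processing notes, the authors used RMA to make the deposited log2 values of 24128 probe sets. Its version is not given in the sources used here. RMA equalises the arrays' distributions, so differences are relative to the rest of each array. The 112 Affymetrix control probe sets entered only the 3′ minus 5′ measure. Gene symbols came from the platform annotation: 13292 probe sets had 1 symbol, 86 several and 10638 none, and only the first kind was named.

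The 10 arrays were fitted in R 4.3.3 with limma 3.58.1 (lmFit, then eBayes) and no covariate, and p-values were adjusted by Benjamini-Hochberg over all 24016 probe sets. No depth exists for arrays, and their number limits the precision. The fit was tested on simulated data with known changes. Replicate numbers are shared between the groups, but same-numbered arrays did not deviate together (correlations of -0.148 to 0.196), so no block was used.

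The members, the 37 gene lists and the rules were chosen with earlier results of these data known. Named by rule were up to 15 bright, called, non-overlapping genes per direction, up to 8 and 6 genes bright in one group only, up to 5 called genes per list, and the cell type markers. Of 284 genes in the text, 165 fall under this rule, and the other 119 were picked from the lists after their values and their stability under the alternatives were seen. Alternatives were 3 array scalings, a fit of bright probe sets alone, trended and robust variance, array weights, the replicate number as a block, each array left out in turn, a limit of 2-fold, other levels for bright, and the mean over a gene's probe sets. No reference sequence was used here.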

Additional observations from a re-analysis of the deposited data

Results flagged for a closer look

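In 586 sets of 5 arrays (the genes named and the array measures, in each group), the highest or lowest array of 44 sets lay so far from the nearest other array that the gap passed Dixon's 95% limit of 0.71 of the range. Chance alone flags about 1 in 20 such sets. Ovine replicate 1 stood apart in ACO1 (5.78, nearest other 7), BMP4 (4.1, nearest other 5.27), CCNB2 (5.52, nearest other 6.49), CDH2 (10.5, nearest other 10.7), CYP51A1 (6.76, nearest other 7.45), HSPA1A (11.3, nearest other 11.6), INSIG2 (6.34, nearest other 7.29) and ME1 (7.58, nearest other 8.1). It also did so in NSDHL (6.64, nearest other 6.84), VWF (2.34, nearest other 2.31), the 3′ minus 5′ signal of the glutathione S-transferase transcript (-1.06, nearest other -0.92) and the median over the bright probe sets (7.52, nearest other 7.67). Bovine replicate 2 stood apart in CDH2 (8.5, nearest other 8.77), INSIG1 (10.2, nearest other 10.5), ISG12(B) (6.55, nearest other 6.34), MCAM (10.8, nearest other 10.7), PDGFRA (2.8, nearest other 2.82), PFKFB3 (8.36, nearest other 8.73), PKM (10.9, nearest other 10.7) and PSMB9 (9.07, nearest other 8.82). It also did so in TIMP2 (10.3, nearest other 10.1). Bovine replicate 1 stood apart in ACSL5 (8.61, nearest other 8.67), ADAMTS1 (7.15, nearest other 6.86), CD81 (9.15, nearest other 9.21), MET (5.65, nearest other 4.97), P3H2 (5.38, nearest other 5.01) and SMAD3 (7, nearest other 7.23). Bovine replicate 5 stood apart in ADM (8.86, nearest other 9.05), CKM (2.3, nearest other 2.61), EGFL7 (9.61, nearest other 9.46), PCNA (10.9, nearest other 10.8) and SMAD4 (10.8, nearest other 10.7). Ovine replicate 3 stood apart in F5 (2.79, nearest other 2.43), TAGLN (7.46, nearest other 7.15) and VCAM1 (9.55, nearest other 9.37). Bovine replicate 3 stood apart in JAG1 (9.67, nearest other 9.8), LAMC1 (11.1, nearest other 11.2) and XDH (9.28, nearest other 9.39). Bovine replicate 4 stood apart in ACLY (10.5, nearest other 10.4) and TXNRD1 (7.66, nearest other 7.47). Ovine replicate 4 stood apart in EBP (7.7, nearest other 8.21) and TFPI2 (12.2, nearest other 12). Ovine replicate 2 stood apart in IGFBP3 (5.52, nearest other 5.33) and KRT7 (3.09, nearest other 2.96). Each value is in log2 units, and no cause was tested. Leaving out these arrays is among the alternatives given under the processing.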

How the results depend on the processing

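Calls over all probe sets depended on the processing on the lower side, where most calls sit at the floor. Against 7120 lower calls, there were 2715 with each array centred on its median, 3578 after a second quantile normalisation, 4201 with centring on the bright probe sets, 2365 with a replicate block and 2113 with the bright probe sets fitted alone. Leaving out single arrays gave 4079 to 7312 lower and 3256 to 3669 higher calls. A limit of 2-fold left 728 higher and 576 lower calls, and 390 and 316 among the bright probe sets. The bright counts otherwise stayed within 1.5 times of 2770 and 2093 under every scaling, variance model, block and left-out array (2423 to 2747 higher and 1835 to 2310 lower without single arrays), except 1687 higher calls at a level of 7 or more. The replicate block, with numbers that do not pair the arrays, gave 3031 higher calls over all probe sets and 2286 higher and 1729 lower among the bright ones, and 1 of the 5 bovine arrays correlated best with its own number. Of 480 called bright genes of the lists, 365 (76%) kept call and direction under every alternative that could be run, 103 lost the call in at least 1 and 12 reversed in at least 1. Of 209 called genes given by the naming rule, 181 (86.6%) kept both. The 261 called genes in the text, of which 232 kept both, were in part picked after these results were seen and are no measure of stability. Among the genes in the text, reversed with the probe sets of a gene averaged were JAG1 (0.62), JUN (0.022), LAMC1 (0.030) and VCAN (0.14), and with median centring VWF (0.00050), which lies at the floor. The call was lost in at least 1 alternative for JUN, TLR4, ATF4, VWF, PTPRC, RFC3, ERG, EGFL7, CCL2, MYH11, EPCAM, EGR1, CDH5, MCAM, PDGFRA, RELA, IL1R1, IL1RAP, MYD88, JUNB, GSR, RB1, RRM1, RRM2, BMPR2 and ITGB1, for EGR1 and EGFL7 under the replicate block only. The sign of the median turned in 9 of 34 gene groups, none with a median over 0.09 in size. The arrays record no signal over background, which limits every value near the floor.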

Other observations

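Of the 8618 bright probe sets, 2833 had no single gene symbol, and 32 of these were at least 4-fold different between the groups. They are counted only. Among genes with several bright probe sets, HSPA1A, an inducible heat shock protein, was the single one with opposite calls of at least 2-fold, named after its values were seen. It was lower in bovine cells by a difference of -0.75 on its brightest probe set and lower on 3 others, and higher by 1.20 on the last.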
